A study of Mus musculus with 4 samples.

Results

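The immunoglobulin and T cell receptor loci hold the gene segments from which lymphocytes assemble their antigen receptors. The analysis covered 6 loci: the immunoglobulin heavy chain locus (Igh), the kappa and lambda light chain loci (Igk and Igl), the T cell receptor alpha locus with the delta locus inside it (Tcra/Tcrd), and the T cell receptor beta and gamma loci (Tcrb and Tcrg). Their replication timing was read in mouse embryonic stem cells, a cell type in which these segments lie in the germline arrangement. The members were the 50 kb bins of clusters of at least 4 annotated immunoglobulin or T cell receptor segments less than 1 Mb apart, taken from the first to the last segment with 200 kb on each side. This gave 229 bins with a value in 6 loci out of 51153 bins of the 19 autosomes and X, and 697 of the 702 annotated segments, 205 of them pseudogenes.

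The cells were F121-9, a diploid embryonic stem cell line of the hybrid strain cas/129, grown in N2B27 medium with 2i and LIF. Cells were labeled with BrdU for 2 h and sorted by DNA content, and 2 libraries were made from the early S-phase fraction and 2 from the late S-phase fraction. The deposited profile gives 1 value per bin over all 4 libraries, the log2 ratio of early over late reads, called RT here. RT above 0 is early and RT below 0 is late. A scheduled time was read from the rank of a bin in a 10 h S-phase, in which RT 0 fell at 4.09 h. No value per library was analysed, so no replicate error and no test could be given, and the reads behind a bin are unknown. The deviation of a bin from the mean of its neighbors had a robust SD of 0.14 over all bins and 0.20 in the receptor loci. It stands beside the differences below as a scale of bin-to-bin scatter and is no replicate error. The line is a single hybrid, both homologs are combined in each value, and no expression was measured in these libraries, so the cell type was not checked against marker genes.

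A receptor gene is joined from a variable (V) and a joining (J) segment, with a diversity (D) segment between them in Igh, Tcrb and Tcrd, and is spliced to a constant (C) segment. The Rag1 and Rag2 proteins cut beside each segment at a recombination signal, which is made of a heptamer, a spacer of about 12 or 23 bases and a nonamer. Joining pairs a short spacer with a long one. In lymphocyte precursors the loci are known for changes in nuclear position, compaction and replication timing as they are opened for recombination.

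The joining signals of a few segments are shown beside their RT. They were drawn from the segments not annotated as pseudogenes that had a full heptamer and at least 7 of the 9 nonamer bases, as those with the lowest or the highest RT of their locus and class, so their likeness follows from the choice. They were read from the mm10 reference (GRCm38.p6) in the direction of the segment, with the heptamer and nonamer in capitals and the spacer in lower case. The printed V and D signals lie at the 3′ end of their segment and carry the heptamer first. The J signals lie at the 5′ end and carry the complementary nonamer first. Both sides of the D segments were searched, but only a 3′ signal is printed.
Ighv1-55, RT -4.02, chr12:115208056-115208094, minus strand: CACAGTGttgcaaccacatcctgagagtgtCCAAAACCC
Ighv9-3, RT 0.61, chr12:114140654-114140691, minus strand: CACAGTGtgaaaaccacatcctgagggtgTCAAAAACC
Ighd2-8, RT -1.48, chr12:113450823-113450850, minus strand: CACAGTGatatatccagcaACAAAAACC
Igkv4-57, RT -4.17, chr6:69575947-69575974, minus strand: CACAGTGctatagactggaACAAAAACC
Igkv3-1, RT 0.41, chr6:70704178-70704205, plus strand: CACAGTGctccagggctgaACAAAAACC
Igkj1, RT 0.41, chr6:70722523-70722561, plus strand: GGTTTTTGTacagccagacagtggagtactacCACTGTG
Trav7d-2, RT -0.82, chr14:52684473-52684511, plus strand: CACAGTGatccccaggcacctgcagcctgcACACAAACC
Trav12n-3, RT 1.51, chr14:53241245-53241283, plus strand: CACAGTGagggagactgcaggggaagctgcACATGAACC
Traj12, RT 2.80, chr14:54206525-54206552, plus strand: TGTTTTTGActgactaagaaaCACTGTG
Trbv1, RT -4.05, chr6:40891886-40891924, plus strand: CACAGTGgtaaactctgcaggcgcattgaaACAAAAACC
Trgj1, RT -0.09, chr13:19210315-19210342, plus strand: GATTTTTGTagaagctgtgagCACTGTG
Trgj2, RT 0.61, chr13:19311305-19311332, minus strand: GATTTTTGTagaagctgtgagCACTGTG
The heptamer and the nonamer were complete at the V segment Igkv4-57, in the bin with the lowest RT of Igk, and at Igkv3-1, in the early bin beside the J segments. The signals of Trgj1 and Trgj2 were identical in all 28 bases, although their bins differed by 0.69 in RT.

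The heptamer CACAGTG was searched in the first 10 bases beyond the segment end, with the nonamer ACAAAAACC after it. It was found at 273 of the 364 V segments not annotated as pseudogenes (75.0%) and at 58 of the 189 V pseudogenes (30.7%). At the 3′ ends of all other genes it was found at 37 of 53141 (0.0696%), and at their 5′ ends in the complementary direction at 32 (0.0602%). Among the V segments with the heptamer and not annotated as pseudogenes, 85 of 86 in Igk had a spacer of 12 bases and 94 of 96 in Tcra/Tcrd had one of 23 bases. In Igh the 82 such segments were less uniform, with a spacer of 22 bases at 43 and of 23 bases at 32. Only spacers of 12 or 23 bases, 1 base either way, were tried, and the one with the best nonamer was kept. Other lengths could thus not be found, and segments with a poor nonamer are included. At least 7 of the 9 nonamer bases matched at 85 of 86 in Igk, 67 of 96 in Tcra/Tcrd and 61 of 82 in Igh. Outside the V segments the heptamer was found at 23 of 84 J segments (27.4%), and beside D segments at 8 of 23 3′ ends and 1 of 23 5′ ends. By locus the V segments with it were 8 of 22 in Tcrb, 1 of 7 in Tcrg and none of 3 in Igl. A segment without a match may carry a heptamer with other letters, and the search gives no measure of how well a signal works.

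Over the 6 loci, 64 of the 229 bins were early, 27.9% (exact 95% interval 22.2 to 34.2, for counting only), against 40.9% of all bins. RT at or above 1 was reached in 32 bins, 13.97%, against 31.9% of all bins. RT at or below -1 was found in 132 bins, 57.6%, against 49.8% of all bins, and RT below -3 in 71 bins, 31.0%, against 27.4%. The loci thus held fewer strongly early bins and somewhat more late bins than the profile as a whole, and 28.4% of their bins lay between -1 and 1 against 18.2% of all bins. Neighboring bins share replication domains and are not independent, so the intervals cover counting only.

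The 6 loci did not share one timing. By mean RT over bins, the order from late to early was Tcrb, Igk, Igh, Igl, Tcrg and Tcra/Tcrd. The means depended on the flanks, in long loci as well as in short ones. With flanks of 500 kb the mean of Igl was 0.15 and that of Tcrg 0.10, which exchanged their places. Without flanks Igl had -1.10, Igh -2.34, Igk -2.62 and Tcra/Tcrd 0.43, whereas Tcrb with -3.27 and Tcrg with 0.28 hardly moved. Tcrb had a mean of -3.18 ± 0.64 (SD over 23 bins), with no early bin (exact 95% upper limit 14.8%, for counting only). Igk had a mean of -2.19 ± 1.61 over 72 bins, 8 of them early, and Igh one of -1.85 ± 1.99 over 64 bins, 11 of them early. All receptor bins below -3 lay in these 3 loci, where they made up 69.6% of the bins in Tcrb, 40.3% in Igk and 40.6% in Igh.
Igl followed with a mean of -0.44 ± 2.11 over 13 bins, of which 5 were early. Tcrg had a mean of 0.30 ± 0.51 over 13 bins, of which 7 were early. Tcra/Tcrd had a mean of 0.93 ± 1.35 over 44 bins, of which 33 were early (75.0%), and none of its bins reached -1. The means of Igk and Igh differed by less than the SD over bins of either locus, and so did those of Igl and Tcrg by less than the SD of Igl. On the scale of scheduled time, the median bin replicated at 7.86 h in Tcrb, 6.78 h in Igk, 6.71 h in Igh, 5.3 h in Igl, 3.78 h in Tcrg and 3.73 h in Tcra/Tcrd. On the chromosomes that carry the loci, 34.5% (chromosome 14) to 42.1% (chromosome 13) of all bins were early, so Tcra/Tcrd lay on the one of them with the lowest share.

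**Figure D1:**
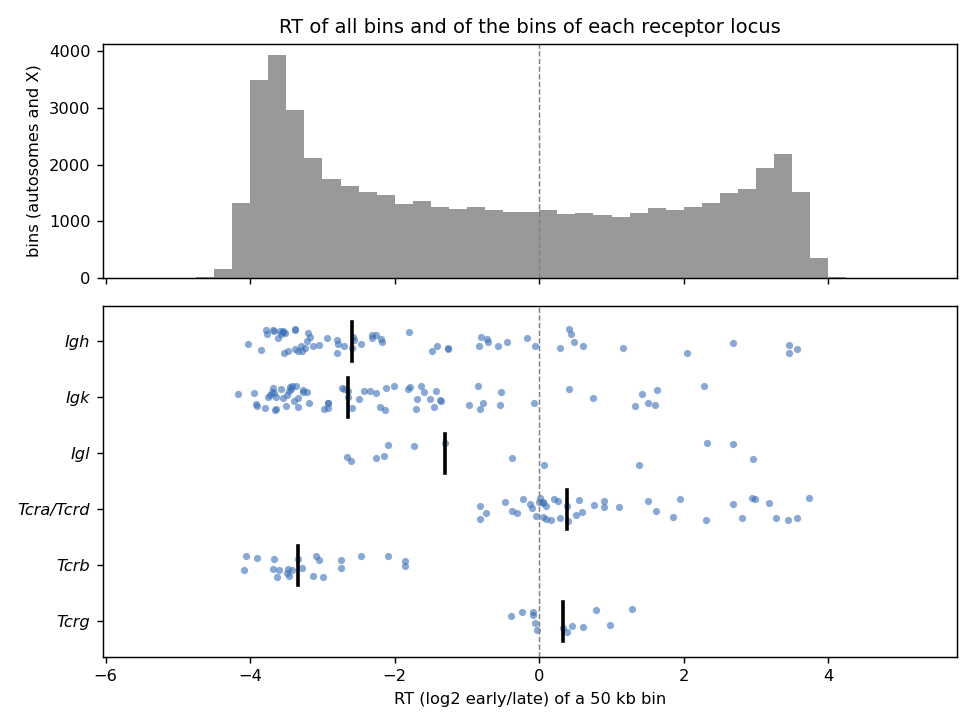
The upper panel counts all 51153 bins by RT, and the lower panel shows each bin of each receptor locus as a point with the median as a bar. The Tcrb points all lie at -1.85 or lower, whereas the points of Tcra/Tcrd and Tcrg gather around 0.

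Segments of different classes lay at different RT. Of the 692 segments whose bin had a value, 199 were in early bins (28.8%). Over all bins of the profile, 40.9% were early and 27.4% lay below -3. Among the V segments, which contribute most of the receptor's antigen-binding domain, 111 of 548 were early (20.3%). Their median RT was -2.58, and 223 lay below -3 (40.7%). Among the J segments 72 of 94 were early (76.6%), and among the C segments 14 of 22 (63.6%). The D segments followed their loci, with both Tcrd segments early at 1.95 and all 22 Igh and both Tcrb segments late. Most of the early J segments, 62 of 72, were those of Tcra/Tcrd, and many segments share a bin, so these counts describe a few places rather than independent items.

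Within 4 of the loci the V part was later than the J and C part by more than 1 in RT. The mean RT over bins with V segments minus that over bins with J or C segments was -3.34 in Igh (50 against 4 bins), -3.04 in Igk (62 against 1), -2.07 in Tcra/Tcrd (32 against 3) and -1.55 in Tcrb (8 against 1). In Igl, where V, J and C segments are interspersed, it was -0.28 with 3 bins on each side, under the SD of 1.18 over the V bins. In Tcrg, which is built of repeated V, J and C cassettes, it was 0.01, again with 3 bins on each side. A bin that held both kinds of segment was counted on both sides.

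**Figure D2:**
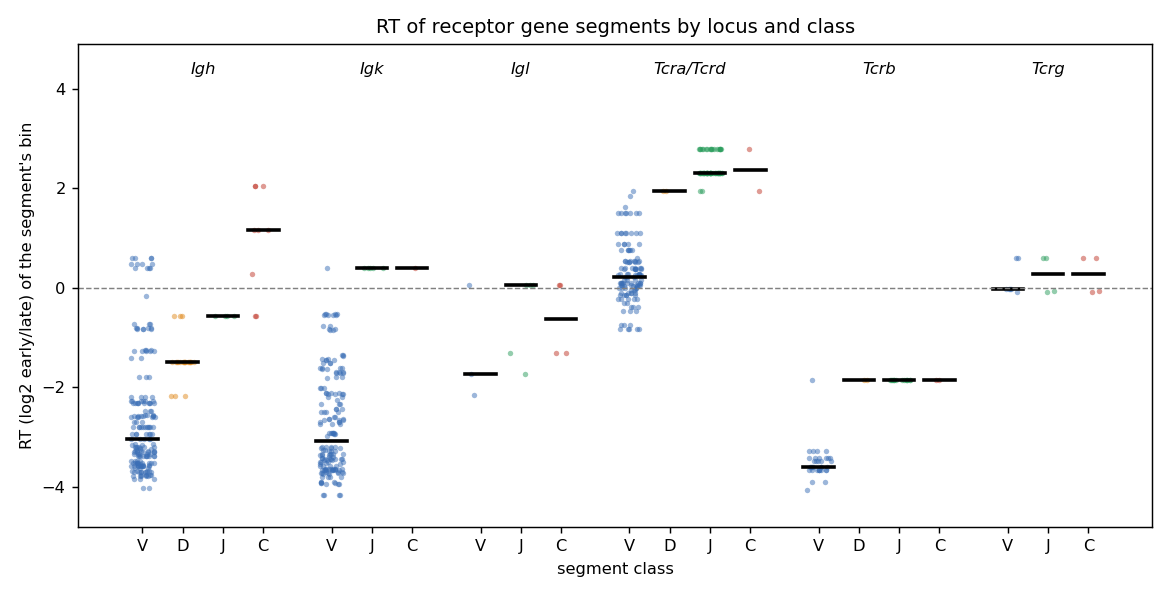
Each point is a receptor segment at the RT of its 50 kb bin, by locus and class (V, D, J and C), and bars are medians. V segments of Igh and Igk center near -3 with their J and C segments above them, and those of Tcra/Tcrd center near 0 with J and C between 1.95 and 2.80.

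Igh spans chr12:113254830-116010093 (mm10), 2755 kb with 196 V, 22 D, 4 J and 9 C segments, and is transcribed from the minus strand. Its C end lay in a steep fall of RT. From low to high coordinates, the bin of Igha, Ighe and Ighg2c, which encode the IgA, IgE and IgG2c constant regions, had RT 2.05. The bin of Ighg2b and Ighg1 had 1.16 and that of Ighg3, another IgG constant region, had 0.29. Ighd and Ighm, which encode the constant regions of IgD and IgM, shared a bin at -0.57 with all 4 J segments and 3 D segments. The constant regions reached by class switching were thus early, and the pair used before switching was late, 0.86 lower than the bin of Ighg3. The next bins toward the V segments held 16 D segments at -1.48 and 3 D segments at -2.18.

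RT crossed 0 at chr12:113391683, 30.5 kb from Ighg3 and 14.9 kb from Ighd. The transition from RT 1.16 to -1.48 ran over 200 kb from 113300001 to 113500000 at 17.6 log2 units per Mb and held 30 segments, among them all J segments and most D segments. On the C side, the 1 Mb beyond the 200 kb flank had a mean RT of 1.96. The earliest bin of the locus with its flanks, at 3.57, held the starts of Tex22 and Mta1, a subunit of the NuRD chromatin remodeling complex.

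The V part of Igh was late but not evenly so. Of its 196 segments, 101 lay below -3 and 12 were early. RT fell to -3.59 in the bin from 113650001, among segments of the proximal families Ighv2 and Ighv5. It then rose to 0.61 in the bin from 114100001, which holds Ighv12-1, Ighv9-2, Ighv12-2 and Ighv9-3, and fell again to -3.78 in the bin from 114600001. This peak was crossed by 0 at 114057013 and 114211884, so 155 kb of the V part formed an early island within late bins, and its center bin had a rise of 4.19 on one side and a fall of 4.38 on the other. Both changes were far larger than the scatter between neighboring bins. The 12 early V segments of Igh all lay there.

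The families followed their position. The Ighv9 segments had a median of 0.51 with 3 of 4 early, and Ighv12 had 0.61 with 2 of 3 early. Ighv5 and Ighv2, nearest to the D segments, had medians of -3.04 with none of 22 and none of 11 early. The family Ighv1, with 93 segments and mostly in the distal part, had a median of -3.33, a range from -4.02 to -1.41 and no early member. Its latest bin, from 115200001, held Ighv1-55, whose signal is printed above. A smaller rise to -2.32 lay within the Ighv1 segments in the bin from 114900001. At the distal end, Ighv1-86 had -1.41, and RT went back through 0 only in the flank, 171 kb beyond it.

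Igk spans chr6:67555497-70726966, 3171 kb with 176 V segments, 5 J segments and 1 C segment. The J segments and Igkc, the kappa constant region, shared 1 bin at RT 0.41. The bin next to it on the C side, with the start of Rpia, an enzyme of the pentose phosphate pathway, had 1.33, and the next but one on the V side had -1.36. RT crossed 0 at about chr6:70703226, near Igkv3-1 and Igkv3-2, and the transition over 200 kb had a slope of 17.9 log2 units per Mb. The crossing was interpolated between the centers of 50 kb bins, so its distance to either segment is not resolved. Of the 176 V segments, Igkv3-1 was the only one in an early bin, and it shares that bin with the J segments. The 175 others lay in a single run of late bins of 3200 kb with a mean RT of -2.63.

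Within that run, RT had 2 peaks that did not reach 0. One was -0.54 in the bin from 70100001, with Igkv8-31, Igkv8-30, Igkv6-29 and Igkv8-28, between a trough of -3.19 at Igkv6-15 and Igkv6-14 and the latest bin of the locus. The other was -2.0 in the bin from 68800001, with Igkv4-90 and Igkv12-89. The lowest RT was -4.17 in the bin with Igkv4-57, well inside the locus. Igkv4 with 33 segments and Igkv13 with 18 had medians of -3.65 each, whereas Igkv3, the family next to the J segments, had -1.36. RT rose again toward the distal V end, where the outermost V segment had -0.85 and RT crossed 0 in the flank, 34.7 kb beyond that segment and next to Il23r, a cytokine receptor subunit. Igk was thus a late block between early neighbors, with mean RT of 1.14 and 1.82 in the 1 Mb beyond its flanks.

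Igl spans chr16:19061618-19260859, 199 kb with 3 V, 5 J and 4 C segments. It lay in the fall from an early region, with a mean RT of 3.35 in the 1 Mb beyond its flank on the C side, to late bins. Iglc1 and Iglc3 with Iglj1, Iglj3p, Iglj3 and Iglv1 were in 1 bin at 0.06, which is within the scatter of 0. The second cluster, Iglc4, Iglj4 and Iglc2, was at -1.30, while Iglj2 and Iglv3 were at -1.74 and Iglv2 was at -2.14. RT crossed 0 at chr16:19082366, 2.65 kb from Iglv1. The transition was 200 kb long, with 17.9 log2 units per Mb and 9 of the 12 segments in it. The steepest transitions of Igh, Igk and Igl therefore all ran through J or C segments, at 17.6 to 17.9 log2 units per Mb.

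**Figure D3:**
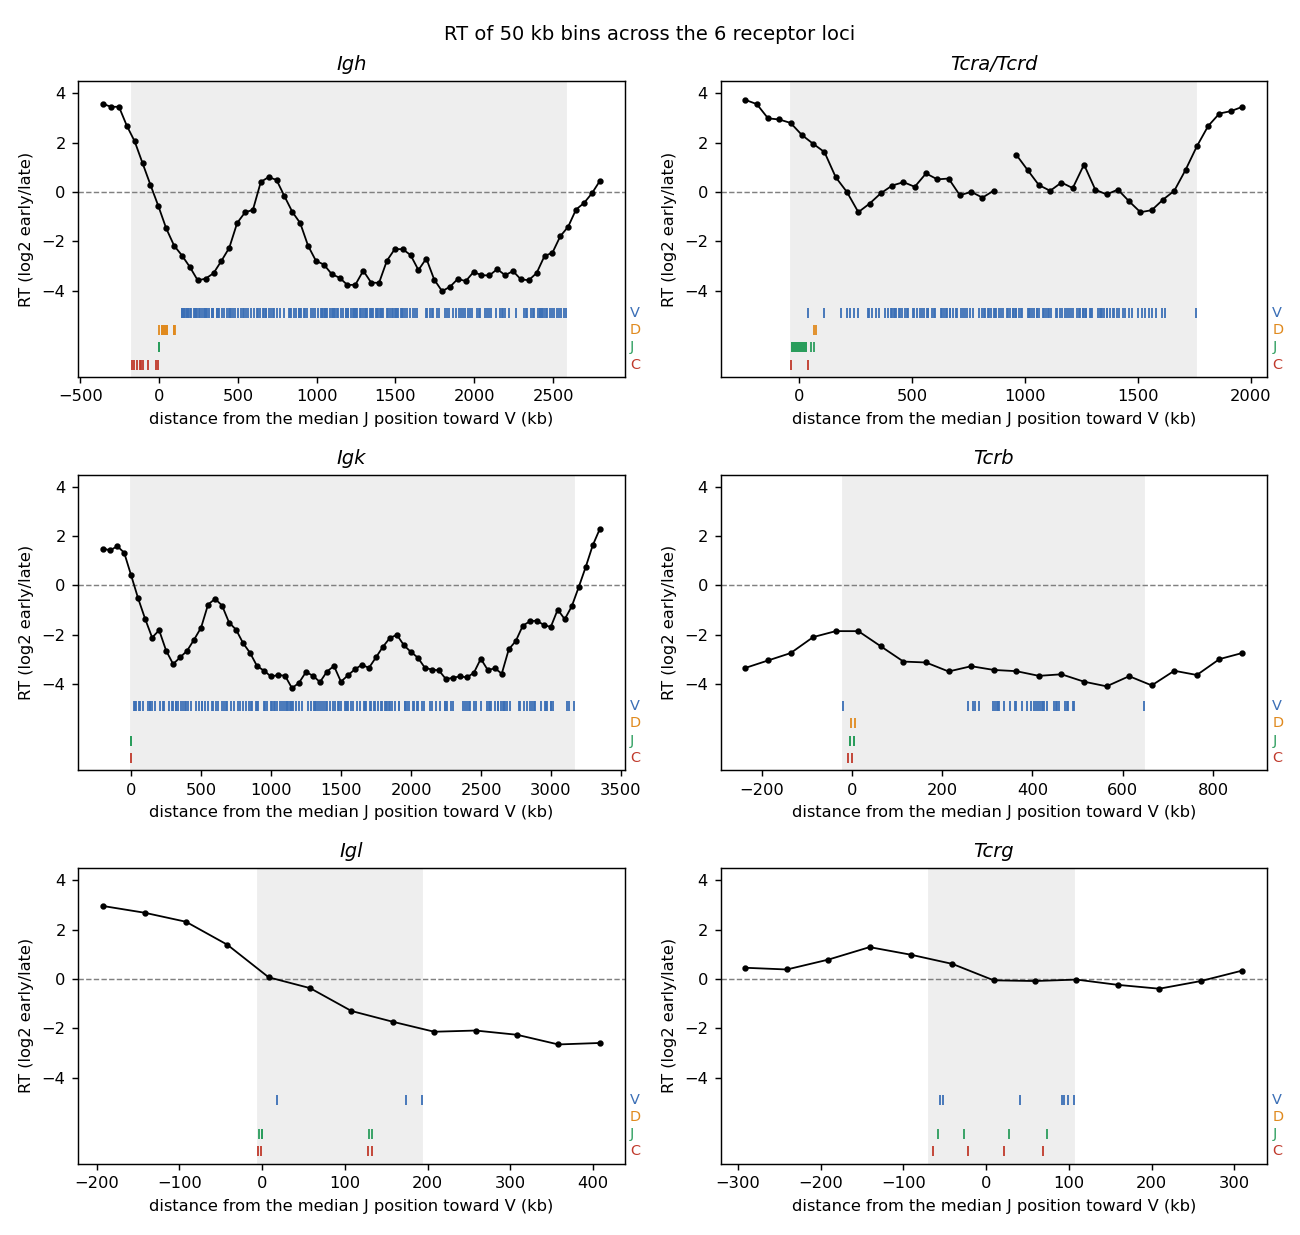
RT of each 50 kb bin is plotted against the distance from the median J position, with V segments to the right, ticks for the segments below and the span of the locus in gray; the line is broken at the bin without a value. Igh, Igk and Igl fall through 0 near their J segments, Tcra/Tcrd stays within about 1 of 0 over most of its V part, and Tcrb stays at -1.85 or lower.

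Tcra/Tcrd spans chr14:52427928-54224206, 1796 kb with 136 V, 2 D, 62 J and 2 C segments. All its J and C segments were early. Trac, the alpha constant region, had RT 2.80, and Trdc, the delta constant region upstream of the alpha J segments, had 1.95. The J segments ranged from 1.95 to 2.80 in 3 bins, and the D segments Trdd1 and Trdd2 had 1.95. RT rose further beyond Trac to 2.94 at Dad1, a subunit of the oligosaccharyltransferase, and to 3.73 at Slc7a7 and Mmp14.

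The V part lay near RT 0, which fell at 4.09 h of the 10 h S-phase. Of the 131 V segments with a value, 95 were early, their median was 0.21 and their range was -0.82 to 1.95. The V segments nearest the J end were the earlier ones, with 1.95 at Trdv5 and 1.62 at Trdv4, and the most distal one, Trav1, had 1.85. Between these ends RT crossed 0 at 10 places from 52531726 to 53975713, and the V segments were spread over 11 runs of early or late bins. At 3 of these crossings the bins on both sides were within 0.20 of 0, the scatter between neighbors in the loci, and at 7 they were within 0.36, the scatter of the Tcra/Tcrd bins in which under 50% of the sequence was unique. Among the 7, the crossings at 52531726 and 53816909 lie between bins of 64.7% unique or more, where the scatter in Tcra/Tcrd was 0.23 or 0.12. The bins beside them reached -0.31 and 0.26, a little beyond 0.23. The other crossings among the 7 cannot be told apart from the scatter. The lowest values were -0.82 in the bin from 52650001, with Trav7-1, Trav6-2 and Trav7d-2, and -0.82 in the bin from 53900001, with Trav22 and Trdv2-1. No transition between RT 1 and -1 was found in the locus, since no bin reached -1.

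The central V part of Tcra holds near-identical copies, named with d and n, in the C57BL/6J reference. In the bin from 52900001, with RT 1.11 and neighbors of 0.09 and 0.16, only 1.70% of the 50-base starts occurred once in the reference. In the bin from 53200001, with RT 1.51, it was 1.92%. The next bin, with Trav13n-2 and 4 other V segments, had no value and 2.74% of its starts were unique, although it held no unknown bases. Of the 22 receptor bins under 50% unique, 15 lay in Tcra/Tcrd. Without those bins the mean RT of Tcra/Tcrd was 1.28 in place of 0.93. The number of these V copies in the cas and 129 genomes was not tested.

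Tcrb spans chr6:40891229-41558452, 667 kb with 35 V, 2 D, 14 J and 2 C segments, and was late throughout. Its D and J segments with Trbc1 and Trbc2, the constant regions of the beta chain, shared a bin at RT -1.85. The bin of Trbv31, the V segment on the far side of the constant regions in opposite orientation, had the same -1.85. The other 34 V segments were all below -3, from -3.28 at Trbv30 to -4.05 at Trbv1, the most distal one. RT thus fell by 1.42 from the J segments to Trbv30, and no bin of the locus or of its flanks was early.

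The locus lay in a run of late bins 7250 kb long with a mean RT of -2.99, so it had no timing transition of its own. Between Trbv1 and the other V segments, and again between Trbv30 and the D segments, lie trypsinogen genes, which encode digestive proteases of the pancreas. They were late as well, with RT -3.68 at Prss58, -3.49 at Try4 and Try5, -2.47 at Prss1 and -1.85 at Prss2. All 22 protein-coding genes in the bins of Tcrb, among them Ephb6 and the calcium channel gene Trpv6 at -2.10, started in late bins.

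Tcrg spans chr13:19178024-19352756, 175 kb with 7 V, 4 J and 4 C segments in 4 bins. These bins had RT from -0.09 to 0.61. Tcrg-C1 was at -0.09 and Tcrg-C3 at -0.06, both within the scatter of 0, and Tcrg-C2 and Tcrg-C4 were at 0.61. Trgv2 and Tcrg-V1 shared that early bin, and the 5 other V segments were between -0.09 and -0.03. RT crossed 0 at 19279362, between Tcrg-C3 and Tcrg-C2, and reached 1.29 in the flank beyond Stard3nl, a gene for a lipid transfer protein. The whole locus lay in a stretch of 1100 kb between bins at -1.58 and 1.29, which gives 2.73 log2 units per Mb from end to end. RT did not rise evenly over it: it also crossed 0 upward at 18813312 and downward at 19014453. The transitions of 200 kb at the J end of Igh, Igk and Igl had 17.6 to 17.9.

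The slope of RT over the 10 bins around the J segments, taken toward the V side, put these courses on 1 scale. It was -14.4 log2 units per Mb in Igh, -13.3 in Igl, -10.6 in Igk and -7.85 in Tcra/Tcrd. In Tcrg it was -2.99 and in Tcrb -0.58. RT thus fell steeply toward the V segments in Igh, Igk and Tcra/Tcrd. In Igl RT fell steeply along the chromosome, through V and J segments that are interspersed. The window in Tcrb spans a peak with lower values on both sides, and V and J segments are interspersed in Tcrg. The slopes of Igl, Tcrb and Tcrg therefore give no direction from J to V.

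The receptor bins differed from the profile in their sequence as well. Their median GC content was 39.7% against 41.2% of all bins, and a median of 42.8% of their bases was masked as repeats against 32.0%. Their median share of unique 50-base starts was 78.4% against 94.0%. Across the 229 bins, RT and GC content had a Pearson r of 0.70 and a Spearman rho of 0.68, close to the 0.73 and 0.74 over all bins. By locus r was 0.87 in Igl (13 bins), 0.80 in Igh (64), 0.75 in Tcra/Tcrd (44), 0.68 in Igk (72), 0.56 in Tcrb (23) and 0.28 in Tcrg (13). Neighboring bins share both base composition and replication domain, so these are descriptions across bins of 1 profile, with no test.

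Pooled over the loci, scatter was greater where the sequence was less unique, and Tcra/Tcrd held most of the least unique bins. The robust SD of the deviation from neighbors was 0.33 in the 22 receptor bins under 50% unique, 0.22 in the 97 bins from 50% to under 80% and 0.13 in the 110 bins at 80% or more. In Tcra/Tcrd it was 0.36 in 15 bins, 0.23 in 11 and 0.12 in 18. Igh had 0.11 in 3 bins under 50% unique, 0.19 in 32 and 0.16 in 29, and Igk had 0.17 in 3, 0.19 in 40 and 0.14 in 29. These loci thus left the order only in their classes of 3 bins. Tcrb had 0.20 in both the 5 and the 17 bins of the upper classes. Igl and Tcrg had no bin under 50% unique. From the middle to the upper class, Igl had 0.16 in 5 bins and 0.13 in 8, and Tcrg had 0.23 in 4 and 0.16 in 9. The part of repeated sequence in any single value was not tested.

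**Figure D4:**
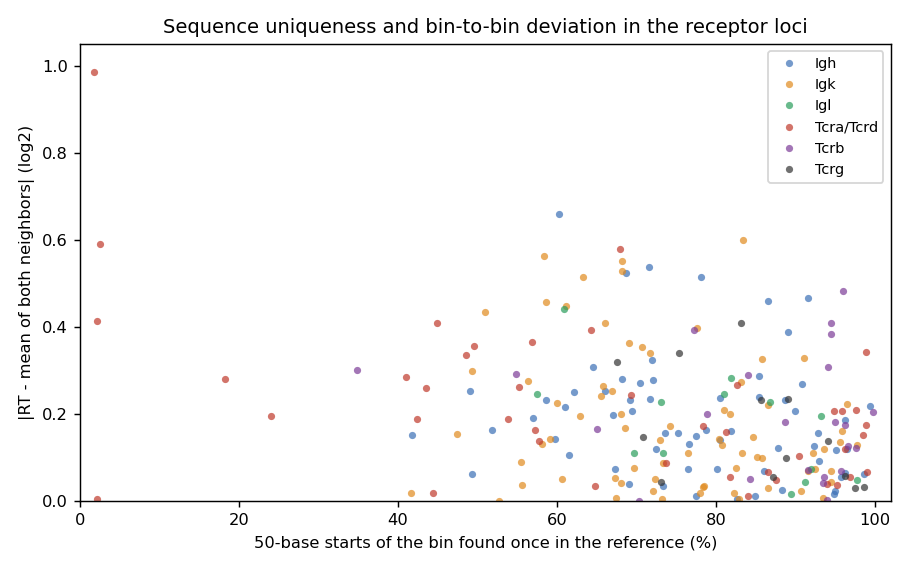
Each point is a receptor bin, with the share of its 50-base starts that occur once in the reference on the horizontal axis and the absolute difference between its RT and the mean of its neighbors on the vertical axis. The largest deviation, 0.99, belongs to the Tcra/Tcrd bin with 1.70% unique starts.

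Other protein-coding genes in the receptor bins were counted in the flanks and between segments. Of 68 such genes 38 started in early bins, 35 of the 49 in the flanks and 3 of the 19 between segments, against 72.9% of all protein-coding genes with a value. The share in the flanks was near that background. Most of the genes between segments, 14 of 19, belonged to Tcrb. The 3 were olfactory receptor genes next to Trav1, with Olfr1509 at 1.85 and Olfr1508 and Olfr1507 at 0.90. The 16 late ones were the 14 of Tcrb and, in Igh, Adam6b at -1.48 and Adam6a at -2.18, which encode sperm membrane proteins and lie near the D segments. All 19 genes of Tcra/Tcrd started in early bins. At Igl, Olfr164, Olfr165 and Olfr166 on the V side had RT from -2.66 to -2.09, and Hira, a histone chaperone gene on the C side, had 2.96.

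The genes whose products assemble, partner and regulate these receptors mostly lay in early bins, but their share differed between the lists. Of 46 such genes 41 were early (89.1%), with a median RT of 2.77, against the 72.9% and a median of 2.27 of the 21666 protein-coding genes with a value. Among recombination and joining factors 10 of 14 were early (71.4%), with a median RT of 2.14. Both values were near those of all protein-coding genes. The 4 late ones were Rag1 and Rag2, the recombinase genes, which share a bin at -1.51, Xrcc4 at -1.25 and Lig4, the ligase that works with Xrcc4, at -2.35. Xrcc5 and Xrcc6, the Ku subunits that hold the broken ends, had 3.40 and 3.60, and Prkdc, the kinase they recruit, had 2.34. Dntt, which adds bases without a template at the joints, had 1.15.

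All 3 genes of class switching and hypermutation were early, with RT from 2.89 to 3.83, the highest at Ung, the uracil glycosylase. All 14 receptor partners were early, from 1.99 at Cd8a to 3.59 at Cd4, both T cell coreceptors, with Vpreb1 and Igll1, the surrogate light chain genes, in 1 bin at 3.27. Of 15 lymphoid transcription factors 14 were early, but their median RT of 1.99 was below the 2.27 of all protein-coding genes. Runx1 was late at -2.52, read in the bin of the start of its annotated span. Ebf1, Foxo1, Bcl11b and Ikzf1 were between 0.16 and 0.56, and Tcf3, which encodes the E2A proteins, and Tcf7 were at 3.79.

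**Figure D5:**
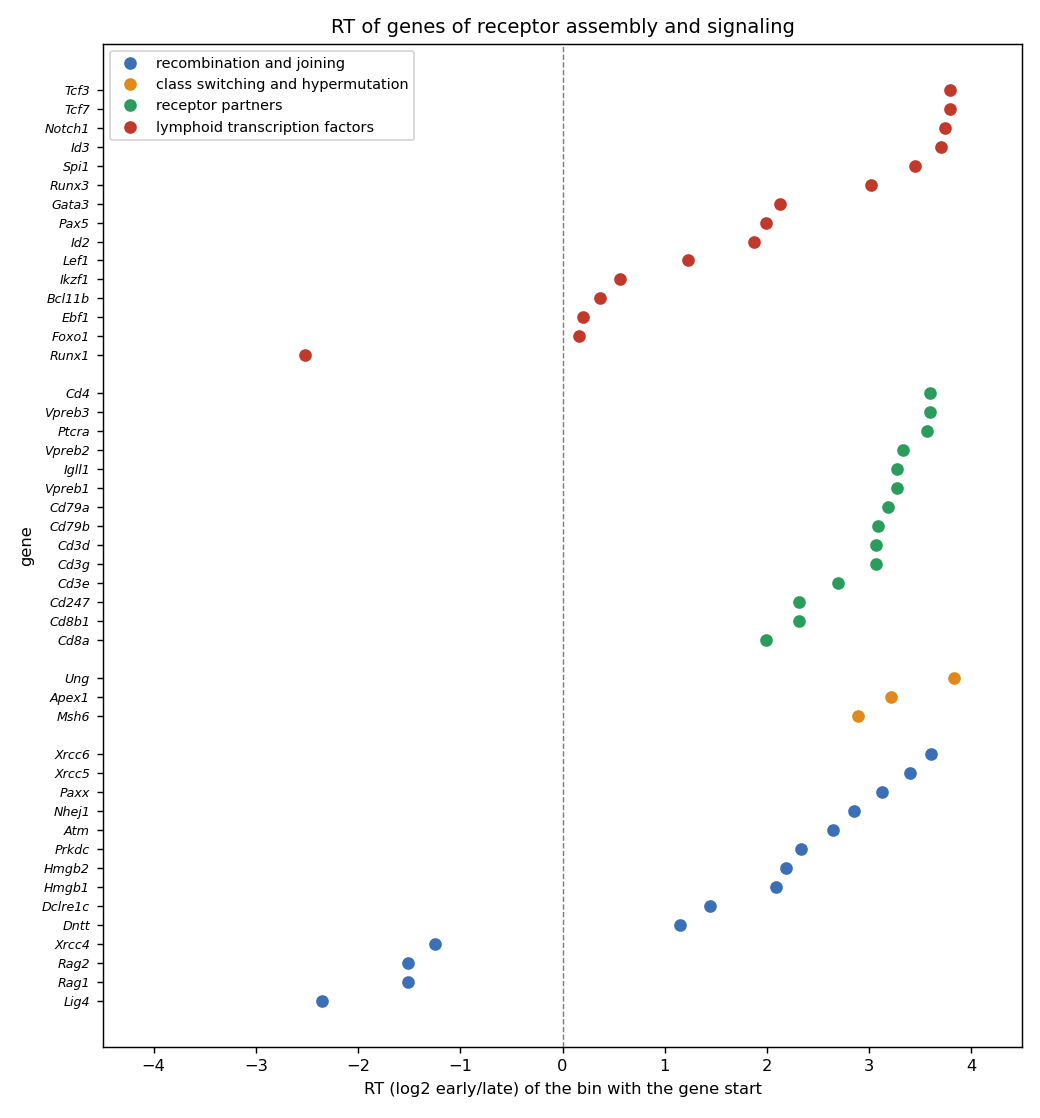
RT of the bin with the gene start is shown for 46 genes of receptor assembly and signaling, grouped by role. The 5 points to the left of 0 are Lig4, Rag1, Rag2, Xrcc4 and Runx1.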

How the data were processed

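Population Repli-seq values of F121-9 cells were analysed. As the study's methods describe, the authors converted early and late reads to RPM in 50 kb bins, and the deposited values are the log2 ratio of early over late, 1 per bin for all libraries. The labels name Bowtie2, SAMtools, bedtools and mm10. A filter on mapping quality is described for reads not named as these, and how replicates were combined or whether the profile was smoothed is not given in the sources used here. Depth per library and per bin is unknown.

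Chromosome Y and the mitochondrial genome were left out. Segments are GENCODE vM21 genes whose type starts IG_ or TR_, each given the RT of the bin at its midpoint. Scheduled time is 10 h times 1 minus the rank of RT as a fraction. Transitions run between RT 1 and -1 with gaps of at most 200 kb. Crossings of 0 were interpolated between bin centers, so distances from them that are short beside a bin of 50 kb are not resolved. Peaks and troughs differ by at least 1 from both sides. Uniqueness is the share of 50-base starts found once on both strands, at every 10th start (every 1000th for all bins). A recombination signal was a full heptamer, with the nonamer counted as present at 7 or more of 9 matching bases. Named genes were the constant segments, the first and last segments, those of the highest and lowest bins and peaks, the extreme other genes, and lists of assembly and partner genes, of which 3 are not reported here. The members and lists were chosen with earlier results of these data known. Python 3.11.15, numpy 2.4.6, pandas 2.3.3, scipy 1.17.1 and numba 0.67.0 were used. Grouping into loci, the choice of bins, a crossing, the scatter and the lookup of positions were checked on made-up genes and a simulated profile. The other steps were not checked in this way. No test was run, and flanks, ends, cutoffs and averaging were varied.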

Additional observations from a re-analysis of the deposited data

How the results depend on the processing

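Of 85 alternatives to 14 results, 60 moved by less than 0.14 in RT, the scatter between neighbors over all bins, or stayed within the counting interval of a share. Without flanks, early bins made up 19.3% in place of 27.9%, and the mean RT was -2.34 in Igh, -2.62 in Igk, -1.10 in Igl and 0.43 in Tcra/Tcrd. With flanks of 500 kb the share was 36.9% and the means were -1.25 in Igh, -1.54 in Igk, 1.47 in Tcra/Tcrd, -2.89 in Tcrb and 0.10 in Tcrg, and that of Igl changed sign, from -0.44 to 0.15. Medians over bins were -2.59 in Igh, -2.65 in Igk, -1.30 in Igl, 0.39 in Tcra/Tcrd and -3.34 in Tcrb. With the median RT of all bins, -0.98, as the boundary between early and late, 42.4% of bins and 40.3% of segments were early. Segments not annotated as pseudogenes were early in 34.7% in place of 28.8%. Leaving out bins under 50% unique, an alternative chosen after seeing the data, gave 23.3% of segments and a mean of 1.28 in Tcra/Tcrd. The V part minus the J and C part was -3.16 in Igh and -0.68 in Igl as a mean over segments, and -1.29 in Tcrb after a running median over 5 bins. The wider flanks include other bins by construction, and the cause of the other changes was not tested.

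No paired analysis was possible because each bin of the deposited table has a single number over all libraries, and for the same reason leaving out each replicate in turn was not run. Differences within the bin-to-bin scatter, RT in bins of repeated sequence, and timing that differs between the homologs were not detectable here.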

Other observations

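The annotation held 5 more immunoglobulin segments, in clusters of fewer than 4 outside the 6 loci, which were not counted above. On chromosome 19, the V pseudogenes AC162463.1 and AC162463.3 had RT 0.06 and AC148174.4 had RT 0.98. On chromosome 6, Gm17472 and Gm20730, with the annotation type IG_LV_gene and located beyond Tcrb, had RT -3.66 and -3.62.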
